A study of Homo sapiens with 6 samples.

Results

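H3K27ac peaks were examined over the clusters of replication-dependent histone genes, the genes that supply the histone proteins packaged onto newly copied DNA. Membership was set by position alone, as any peak that overlapped 1 of 4 intervals of hg19. The intervals were chr6:26015000-26290000 and chr6:27770000-27865000 (the HIST1 cluster), chr1:149780000-149862000 (HIST2) and chr1:228610000-228665000 (HIST3), together 507004 bp. The intervals hold no measured value in their definition, but they were taken up with earlier results of these data known. Inside the intervals lay 99, 91 and 93 of the 174843, 180754 and 181577 peaks deposited for parental cells (control, 2 h, 4 h), and 115, 105 and 88 of the 271785, 221753 and 410176 peaks deposited for knockout cells. To follow the same places across libraries, the 15000 strongest peaks of each library other than knockout 4 h were merged into fixed regions, so the regions, unlike the intervals, were picked for strong peaks, and 44 of the 18835 regions were members, 28 and 9 in the HIST1 intervals, 6 in HIST2 and 1 in HIST3. Of the 44, 43 held a deposited peak in all 6 libraries.

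The cells were CCRF-CEM, a human T lymphoblast line established from an acute leukemia, as the SLFN11-positive parent (labelled wild-type) and as its SLFN11 knockout. SLFN11 is a Schlafen family protein that blocks stressed replication forks and sensitises cells to DNA-damaging drugs. Each genotype was sampled under DMSO, the vehicle, and under camptothecin, a topoisomerase 1 poison, at 100 nM for 2 h and for 4 h. The times are those of the sample titles; the extraction text of every library names 4 h only, and which holds for the libraries titled 2 h was not settled here. Every combination had 1 library, which leaves every difference below without a replicate check and untested. The labels do not say whether the knockout is a single clone. Below, sets of 3 values run in the order control, 2 h, 4 h.

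Replication-dependent histone genes are switched on as cells enter S phase and are held down when DNA replication stalls. Their messages end in a stem-loop in place of a poly(A) tail, and the genes sit in dense clusters that gather at histone locus bodies, nuclear bodies organised around the protein NPAT. Core histone genes for H2A and H2B often lie head to head and share a short promoter. H3K27ac marks active promoters and enhancers, so a drug that stalls replication forks in S phase puts these clusters among the places to look for a change. The question was whether the mark over them differed after camptothecin, with and without SLFN11.

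RefSeq lists 69 such genes on chromosomes 1 and 6 (6 for H1, 17 for H2A, 18 for H2B, 14 for H3 and 14 for H4), of which 64 matched a promoter sequence of 250 bases before to 50 after the gene's start. These sequences are placed on GRCh38.p14, so no gene is assigned to a peak, and the positions below cannot be set against the hg19 positions of the peaks. A copy of TATAAA, the core TATA box, was found on either strand in 65.6% of the 64 promoters, against 12.0% of the 27305 promoters in the table. CCAAT, the box bound by NF-Y, was in 85.9% against 35.7%. It was in every H1, H2A, H2B and H3 promoter matched and in 3 of 12 for H4. ATTTGCAT, the octamer that OCT1 binds in H2B promoters, was in 14 of 18 for H2B, 11 of 16 for H2A, 1 of 12 for H3 (H3C4) and in 0 for H1 and H4, against 1.8% of all promoters. The window used for H3C4 is the first listed and is identical to that of H2AC7 at 300 of 300 bases, so that match is uncertain as one of an H3 gene, and the other window listed for H3C4 lacks the octamer. None of the 3 motifs contains another, and a match is a description of the letters only. Some of the 64 windows overlap or repeat one another, as given below, and matches were taken on either strand. The same letters can thus count for an H2A gene and for its H2B partner. The shares are therefore not over 64 separate sequences.

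Of these promoters, 4 are printed, each as the 250 bases before the start in the direction of the gene, with matches to the 3 motifs on either strand in capitals. H3C14 (chr1:149841209-149841458, minus strand) and H3C15 (chr1:149852358-149852607, plus strand) are shown because they are near-identical copies in opposite orientation. H3C1 (chr6:26020201-26020450, plus strand) encodes the same histone family on chromosome 6. H2BC3 (chr6:26043714-26043963, minus strand) is an H2B promoter with all 3 motifs.
H3C14: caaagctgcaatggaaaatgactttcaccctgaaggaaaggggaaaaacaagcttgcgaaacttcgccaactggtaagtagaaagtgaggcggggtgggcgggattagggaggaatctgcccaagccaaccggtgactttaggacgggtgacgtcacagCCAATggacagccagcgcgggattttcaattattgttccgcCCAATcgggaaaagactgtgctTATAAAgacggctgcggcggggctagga
H3C15: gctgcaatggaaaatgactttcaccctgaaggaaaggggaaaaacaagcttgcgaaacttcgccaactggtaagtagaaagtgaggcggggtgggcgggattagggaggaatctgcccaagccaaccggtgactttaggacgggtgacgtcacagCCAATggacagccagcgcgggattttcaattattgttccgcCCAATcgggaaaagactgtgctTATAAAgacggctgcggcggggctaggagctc
H3C1: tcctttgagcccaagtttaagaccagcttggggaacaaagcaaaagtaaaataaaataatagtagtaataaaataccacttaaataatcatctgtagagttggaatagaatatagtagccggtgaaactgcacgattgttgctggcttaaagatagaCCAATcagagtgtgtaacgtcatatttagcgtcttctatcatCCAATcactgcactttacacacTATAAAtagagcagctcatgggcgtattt
H2BC3: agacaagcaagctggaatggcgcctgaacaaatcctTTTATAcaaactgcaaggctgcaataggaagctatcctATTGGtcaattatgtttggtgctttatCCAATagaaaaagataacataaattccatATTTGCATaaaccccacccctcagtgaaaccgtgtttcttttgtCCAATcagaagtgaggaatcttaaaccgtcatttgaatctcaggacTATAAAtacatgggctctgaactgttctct
Both copies on chromosome 1 carry 1 TATAAA and 2 CCAAT at the same spacing. H3C1 has the same count of each in otherwise different sequence, and H2BC3 has 2 TATAAA, 3 CCAAT and 1 ATTTGCAT. The H3C14 and H3C15 sequences matched at 296 of 296 bases compared, H4C14 and H4C15 at 300 of 300, and H2AC18 and H2AC19 at 299 of 299, each pair on opposite strands. Between H2A and H2B genes on opposite strands, 11 pairs of promoter windows overlapped, over 253 to 293 bases, which is the head-to-head arrangement named above.

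The libraries differed in depth as the lists show it. The background pileup, solved from the most frequent fold and p in each list, was 0.603, 0.506 and 0.570 fragments per base in the parent and 0.699, 0.715 and 0.168 in the knockout. The knockout 4 h library thus stood apart, with 0.241 times the background of its control, and each of its values below carries that. The deposited files place no peak on a gene, so neither the SLFN11 knockout nor the T lymphoblast label was checked against marker genes.

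Peaks were dense over the clusters. The 44 member regions amounted to 8.68 per 100 kb, against 0.621 over the genome and 1.96 in the 1479999 bp between the HIST1 intervals on chromosome 6. In RefSeq's order a run of 5 histone genes, H2BC11 to H2AC12, lies between the main runs on that chromosome, so this stretch may hold histone genes outside the 4 intervals. The first HIST1 interval held 10.2 per 100 kb, the second 9.47, HIST2 7.32 and HIST3 1.82. Member regions were also wide, with a median of 1844 bp against 1468 bp for all regions, and a median of 3347 bp in the second HIST1 interval. The widest ran 5310 bp, on chromosome 6 from 27837916 to 27843225. Neighbouring regions were separated by a median of 4865 bp in the first HIST1 interval, 4169.5 bp in the second and 6655 bp in HIST2. The longest stretch of the first interval without a member region ran from 26057401 to 26104103, 46703 bp in which parental control had 6 weaker peaks with a fold of at most 4.24. The map of peaks over the HIST1 intervals shows the same comb of peaks in all libraries.

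**Figure D1:**
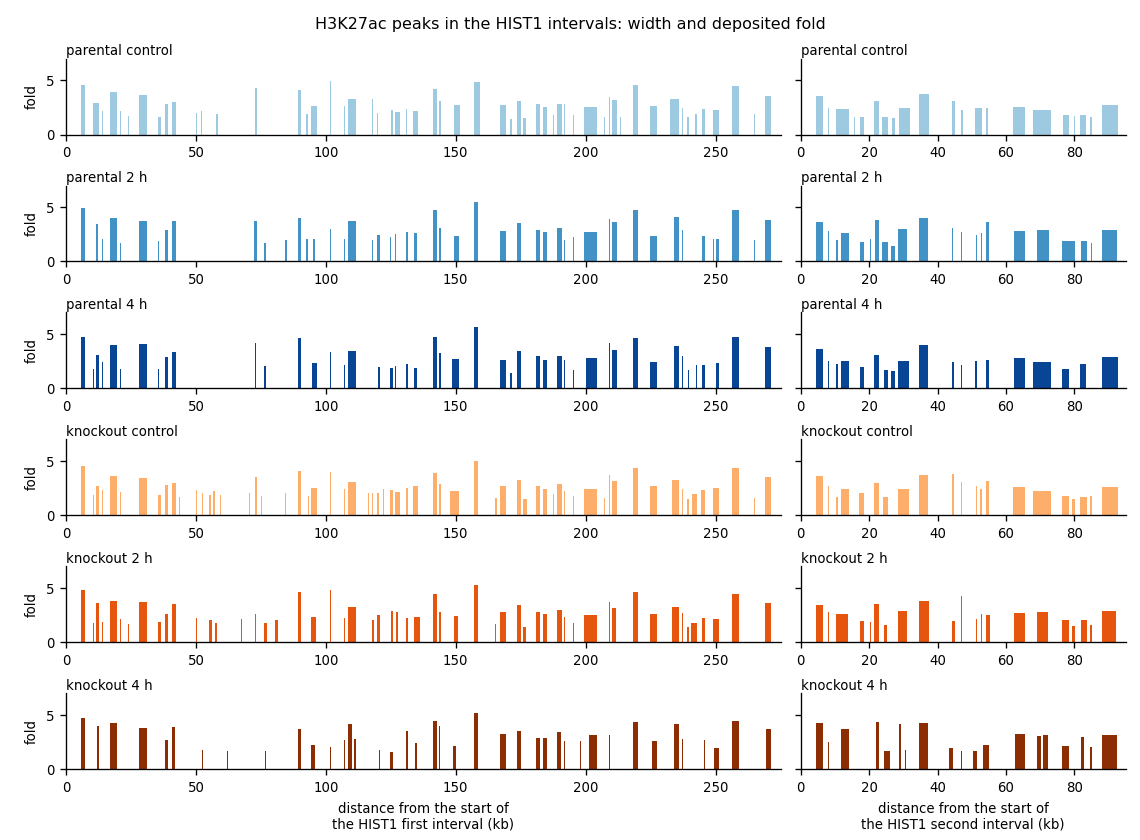
Deposited H3K27ac peaks over the HIST1 intervals in the 6 libraries, drawn as bars from start to end against the distance from the interval's start in kb, with the authors' fold as height. The same main peaks recur in every library in both intervals, and the longest stretch of the first interval free of member regions is 46703 bp.

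The strongest members lay in HIST2. Regions were ranked by their smallest p among all 18835. The region from 149832180 to 149833608 ranked 245, 151 and 315 in the parent and 195, 136 and 46 in the knockout, and the one from 149803333 to 149804778 ranked 238, 141 and 306, and 231, 167 and 48. The region from 149783389 to 149785294 ranked 216, 233 and 661 in the parent and 371, 245 and 105 in the knockout, with the highest fold of any member (6.23, 6.51 and 6.57, and 6.0, 5.98 and 6.35). In HIST1, the region from 26171930 to 26174294 ranked 964, 946 and 1069 in the parent and 754, 621 and 1623 in the knockout. The region from 26271167 to 26274023 ranked 682, 1313 and 1345, and 888, 1205 and 1603. In the second HIST1 interval the leading region, 27804559 to 27807362, ranked 1640, 1812 and 1897, and 1387, 1370 and 855. The other members among the 10 with the best mean rank started at 26020661 and 26233253 in HIST1 and at 149857124 and 149810964 in HIST2, with ranks between 302 and 2754 over the 6 libraries. These 10 stood in the strongest part of the list in every library. That follows largely from the pick, which was by mean rank over the libraries other than knockout 4 h. The median rank of all members was 7600.5, 6745.5 and 7542 in the parent and 7047, 6021.5 and 4557 in the knockout, in the stronger part of the 18835.

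A moderate fold went with a high pileup and a high local background. MACS2 gives each peak a fold, the pileup plus 1 over the local background plus 1, and a Poisson p, and these were solved together for pileup and local background. Both are averages over a broad peak and approximate. In parental control the median member had a local background of 38.8 times the library's background, against 7.66 times for all regions, and a pileup of 132 times against 46.2 times. Over the 6 libraries the members' median local background was 31.0 to 38.8 times, and that of all regions 7.04 to 11.3 times. The median fold of members was 3.09, 3.59 and 3.39 in the parent and 3.07, 3.29 and 3.69 in the knockout, against 4.63, 4.73 and 4.64, and 4.67, 4.73 and 3.76, for all regions. So the members' pileup stood above that of all regions and their fold stood below in all 6 libraries. Whether the local background came from an input, an IgG control or the sample's own neighbouring reads is not given in the sources at hand, so it is a property of the lists and not a count of unbound DNA. The highest local background, 103 to 172 times the library's over the 6 libraries, was at the broad HIST2 regions starting at 149810964 and 149821796. In the 5 libraries other than knockout 4 h the lowest values were at the HIST3 region and at the narrow region from 26116622 to 26117047, 2.0 to 3.3 times.

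**Figure D2:**
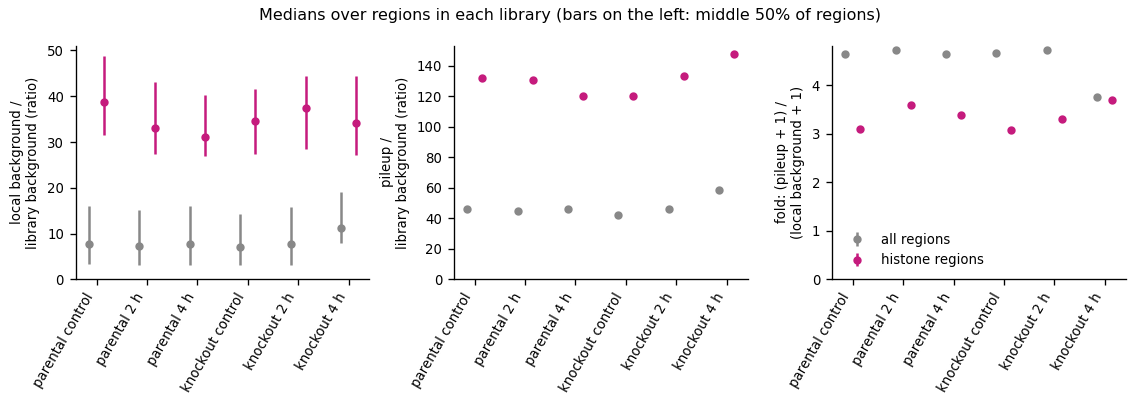
Medians over member regions and over all regions in each library of local background (left) and pileup (middle), both as a multiple of the library's background, and of fold (right); bars on the left span the middle 50% of regions. Members stand at 31.0 to 38.8 times the library background and all regions at 7.04 to 11.3 times.

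Within HIST2, 4 of the 6 members formed mirrored pairs. The outer regions started at 149803333 and 149832180, and the inner at 149810964 and 149821796. Their midpoint fell between 149818465.5 and 149818477.75 in both pairs and all 6 libraries, a range of 12.25 bp. The outer left peak had a fold of 4.55, 5.46 and 5.17 in the parent and 4.55, 4.92 and 5.91 in the knockout, and the outer right 4.54, 5.44 and 5.12, and 4.71, 5.04 and 5.98. The inner left had 2.49, 2.70 and 2.70, and 2.51, 2.49 and 2.96, and the inner right 2.45, 2.68 and 2.69, and 2.48, 2.48 and 2.96. Within a pair the fold differed by 0.000219 to 0.0477 on the log2 scale, and widths by at most 30 bp in any library. The sequence under these peaks was not compared, and the near-identical promoters above are placed on another build. Whether reads of one side can be told from those of the other was not tested, so the paired members are uncertain as separate sites. With each pair counted once there were 42 members. The remaining member at the far end, from 149857124 to 149860163, had a fold of 3.86, 3.97 and 4.08, and 3.72, 3.71 and 3.94.

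**Figure D3:**
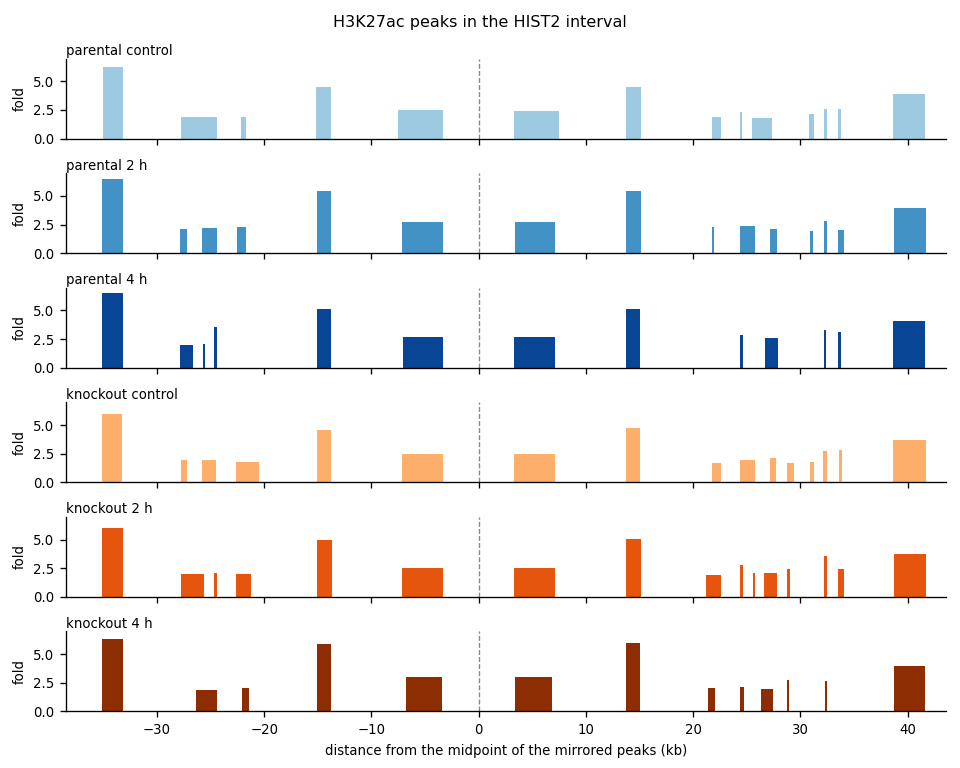
Deposited peaks over HIST2 in the 6 libraries against the distance in kb from the midpoint of the mirrored peaks (dashed line), with the authors' fold as height. The outer and inner peaks mirror each other in position, width and fold in every library, with fold within 0.0477 (log2) in each pair.

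HIST3 was sparsely marked. The 30000 strongest peaks covered 1988, 1544 and 581 bp of it in the parent and 3525, 2604 and 398 bp in the knockout. With all deposited peaks, which differ in number, HIST3 had a cover of 3028, 4744 and 4897 bp, and 10380, 9018 and 6356 bp. Its single member region, from 228613474 to 228614054, had a fold of 3.33, 3.72 and 4.36 in the parent and 4.22, 3.30 and 2.59 in the knockout. Its rank was 17420, 16618 and 14856, and 16021, 17502 and 15434, in the weakest part of the list throughout. Of the 5 libraries that made the regions, only parental 4 h had a HIST3 peak among its 15000 strongest, at rank 14915. The region is thus a member through that library alone, so its higher values there are no support for a gain. The peak over it was 1399 bp wide in parental control, 581 bp in parental 4 h and 2262 bp in knockout control. Fold is a mean over the peak, so values from peaks of unequal width are not of the same bases.

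After 2 h of camptothecin in parental cells, peaks covered less of the clusters, and most member regions had a slightly higher fold. Among the 30000 strongest peaks of each library, a matched number because list lengths differ, those in the 4 intervals covered 107393 bp in control and 87913 bp at 2 h, which fell by 18.1%. Genome-wide, the cover of these 30000 peaks fell by 11.6%, and between the HIST1 intervals it fell by 28.6%. The excess over the genome depended on the peaks taken: among peaks with a −log10 q of 5 or more, cover fell by 15.37% in the clusters and fell by 14.97% genome-wide. With the 15000 strongest peaks it fell by 12.5% in the clusters and by 9.54% genome-wide. With all deposited peaks, which differ in number, it fell by 14.2% in the clusters and was 1.51% higher genome-wide. Cover fell by 22.1% in the first HIST1 interval, fell by 15.9% in the second and fell by 7.59% in HIST2. In 9 of 44 members the covered length was at least 20% lower, against 15.1% of all regions. Fold changes were centred on the median change of all regions, which by construction puts 50% of them above. Of the members 35 of 44 stood above it, with a median of 0.08 on the log2 scale. Fold stood below it in 34.5% of the 3458 regions with a local background of at least 20 times the library's in parental control. Among the 39 members of that kind it stood below in 17.9%. Of the 44 members, none passed 1.5-fold stronger (3.24% of all regions did) and 1 passed 1.5-fold weaker (3.25%). Rank moved down by more than 3000 places in 3 members (8.1% of all regions) and up in 0 (8.79%). The counts of fold and rank calls lie at or below the share in all regions.

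Of the 5 highest gains in fold at 2 h in parental cells, 4 were at regions whose peaks were narrower than in control and 1 was not. The widest member, 27837916 to 27843225, was covered over 5310, 3489 and 5206 bp with a fold of 2.25, 2.87 and 2.45. In knockout cells its cover was 5185, 3462 and 2491 bp and its fold 2.26, 2.80 and 3.16. The 2 h libraries of both genotypes were thus narrower than their controls by a similar length, and parental 4 h stood near control. The region from 27798527 to 27801873 took the same course, with 3297, 2376 and 3147 bp in the parent and 3223, 2440 and 1234 bp in the knockout, and a fold of 2.42, 2.97 and 2.55, and 2.44, 2.86 and 4.21. From 27791440 to 27792872 cover was 1395, 982 and 1381 bp, and 1397, 1339 and 899 bp, with a fold of 3.09, 3.83 and 3.06, and 3.01, 3.57 and 4.38. These 3 lie in the second HIST1 interval. The other narrowed region, 26247525 to 26250910 in the first, is described with its window below. From 26055633 to 26057400 the peak did not narrow, with a cover of 1707, 1745 and 1734 bp in the parent and a fold of 3.005, 3.699 and 3.375. The 2 h and 4 h values of a genotype share 1 control library. Background pileup at 2 h relative to control was 0.839 in the parent and 1.02 in the knockout, and its part in the narrowing was not tested.

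**Figure D4:**
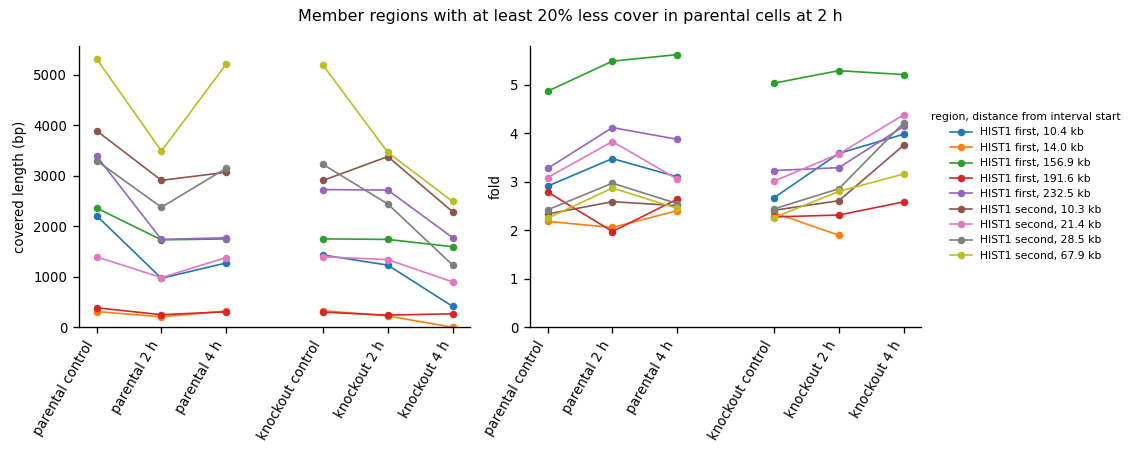
The 9 member regions with at least 20% less cover in parental cells at 2 h, with covered length in bp (left) and the authors' fold (right) in each library; lines join the libraries of a genotype. The widest region (5310 bp in parental control) and 1 other of the second HIST1 interval narrow at 2 h in both genotypes, and a region of the first interval (purple) has 3386, 1739 and 1772 bp in the parent.

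The lowest changes in fold at 2 h were at narrow, weak regions of the first HIST1 interval. From 26116622 to 26117047 the fold was 4.96, 2.99 and 3.4 in the parent and 4.04, 4.78 and 2.1 in the knockout. From 26206597 to 26206982 it was 2.79, 1.97 and 2.64, and 2.27, 2.31 and 2.58, and from 26121913 to 26122361 it was 2.61, 2.08 and 2.18, and 2.46, 2.27 and 2.69. The first of these was the 1 member weaker by 1.5-fold at 2 h, with a centred log2 change of -0.77. All 3 regions were narrow (426, 386 and 449 bp) and ranked between 9559 and 17978 over the 6 libraries.

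After 4 h in parental cells cover was again lower than in control. The 30000 strongest peaks covered 95320 bp of the 4 intervals, which fell by 11.2% from control, while genome-wide cover fell by 6.36%. Among peaks with a −log10 q of 5 or more, cover of the clusters fell by 9.04% and that of the genome fell by 9.59%. With the 15000 strongest peaks the clusters fell by 7.72% and the genome by 4.29%. With all deposited peaks the clusters fell by 14.3% and the genome was 3.08% higher. Whether less was lost at 4 h than at 2 h also depended on the peaks taken, since with all deposited peaks the change was -20594 bp at 4 h and -20386 bp at 2 h. In the second HIST1 interval matched cover fell by 1.32% and in HIST2 it fell by 1.72%, while the first HIST1 interval fell by 16.9%. In HIST3 matched cover fell by 70.8%, from 1988 to 581 bp, whereas with all deposited peaks it was 61.7% higher. Cover was at least 20% lower in 6 of 44 members, against 11.9% of all regions. Fold stood above the median change in 39 of 44 (50% of all regions), with a median of 0.08. Fold stood below it in 44.1% of the 3455 regions of high local background (at least 20 times the library's), and in 10.3% of the 39 members among them. In 0 members was it 1.5-fold stronger (2.1%) and in 0 weaker (3.0%). Rank moved up by more than 3000 places in 0 (7.13%) and down in 2 (7.45%).

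The small gain in fold at 4 h went with lower values of both of its solved parts. Relative to all regions, the solved pileup was lower in 43 of 44 members, with a median of -0.22 on the log2 scale, and the local background was lower in 44 of 44, with a median of -0.32. By construction 50% of all regions lie below. Both parts were solved from the same fold and p, so they are not measurements separate from the fold. The −log10 p was lower in 30 of 44 members relative to all regions, with a median of -0.07. Neighbouring members lie close together and may share a local background, so the members are not separate observations. The exception in pileup was the HIST3 region, at 0.31, which is a member only through parental 4 h. Over the 3455 regions with a local background of at least 20 times the library's in parental control, the median was -0.06 for pileup and -0.09 for local background, and over the 39 members among them -0.21 and -0.31. At 2 h in parental cells the pileup was lower in 35 of 44 (median -0.08) and the local background in 39 of 44 (median -0.19). There the HIST1 intervals carried the shift, with local background lower in 28 of 28 and 9 of 9 members, while in HIST2 it was lower in 2 of 6. In knockout cells at 2 h the pileup was lower in 19 of 44 (median 0.04) and the local background in 29 of 44 (median -0.02). The difference between genotypes was not tested. The plot of changes sets these side by side.

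**Figure D5:**
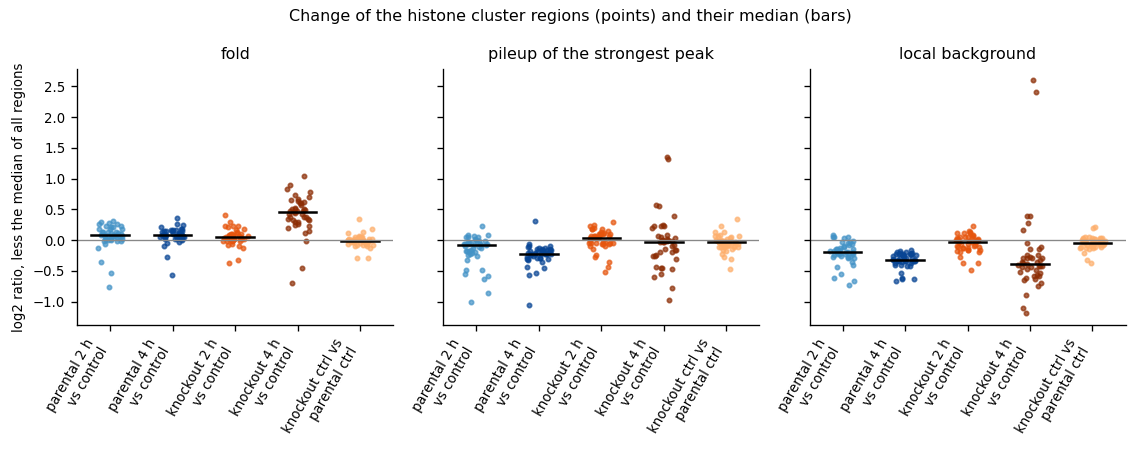
Log2 ratio of fold (left), pileup (middle) and local background (right) for each member region in 5 comparisons, less the median of all regions, with bars at the members' medians. In parental cells at 4 h the fold sits at a median of 0.08, the pileup at -0.22 and the local background at -0.32; knockout 4 h is the library of low depth.

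Among named regions at 4 h in parental cells, the highest gains of fold were at HIST3 (centred log2 change 0.37, a member only through this library), at 26251895 to 26252341 (fold 2.45, 2.91 and 2.99) and at 26223876 to 26224231 (3.44, 3.88 and 4.15). In knockout cells these last regions had a fold of 2.48, 2.70 and 2.80, and 3.76, 3.75 and 3.14. The lowest changes were at the same 3 narrow regions as at 2 h, -0.57 at 26116622, -0.28 at 26121913 and -0.10 at 26206597, from the same control library. As at 2 h, the way regions were picked favoured the falls at 26116622 and 26121913.

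The window on chromosome 6 from 26240001 to 26250000 had the largest parental loss of cover in the first HIST1 interval at 4 h, with 4886, 837 and 875 bp in the parent and 4244, 4267 and 888 bp in the knockout. It was taken up because earlier results of these data named it. The loss had 2 parts. A strong peak, 26247525 to 26250910, was covered over 3386, 1739 and 1772 bp in the parent and 2726, 2715 and 1776 bp in the knockout, with a fold of 3.28, 4.11 and 3.87, and 3.23, 3.29 and 4.14. A weak peak, 26239649 to 26242410 in parental control, was present in all 6 lists, but its rank by p among deposited peaks was 22972, 68875 and 40020 in the parent and 19617, 23595 and 56483 in the knockout. It therefore left the 30000 strongest peaks in the same libraries. Its fold was 2.58, 2.34 and 2.45 in the parent and 2.69, 2.66 and 2.61 in the knockout. Elsewhere in the first HIST1 interval, with other members in between, the region from 26171930 to 26174294 was covered over 2359, 1731 and 1749 bp in the parent. In the knockout it was covered over 1750, 1739 and 1595 bp, so there parental control was the 1 wide library.

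In knockout cells at 2 h, the 30000 strongest peaks covered less of the clusters, and no member passed 1.5-fold. Matched cover of the 4 intervals was 109916 bp in control and 99087 bp at 2 h, which fell by 9.85%, while genome-wide cover was 2.63% higher and the stretch between the HIST1 intervals 4.47% higher. The size of this contrast, and with all deposited peaks its direction, depended on the peaks taken. With all deposited peaks, which differ in number, the clusters fell by 7.05% and the genome fell by 17.7%. With the 15000 strongest the clusters fell by 3.09% while the genome was 1.93% higher. At a −log10 q of 5 or more the clusters fell by 2.76% and the genome was 6.44% higher. HIST2 fell by 0.0884%. Cover was at least 20% lower in 3 of 44 members (7.81% of all regions). These were the widest member, 27798527 to 27801873, and the narrow region from 26028975 to 26029305, with 312, 207 and 322 bp in the parent and 328, 224 and 0 bp in the knockout. Fold stood above the median change in 33 of 44 (50%), with a median of 0.05. Fold stood below it in 61.0% of the 2851 regions of high local background (at least 20 times the library's), and in 24.3% of the 37 members among them. It was 1.5-fold stronger in 0 (1.77%) and weaker in 0 (1.70%). Rank moved up by more than 3000 places in 2 (4.5%) and down in 1 (4.69%). The highest gain was at 26025378 to 26027644, with a fold of 2.91, 3.48 and 3.10 in the parent and 2.67, 3.58 and 3.98 in the knockout. Its cover was 2206, 970 and 1273 bp, and 1430, 1230 and 414 bp. The lowest changes were at HIST3 (-0.37), at 26028975 (-0.32; fold 2.36 in control and 1.90 at 2 h) and at 26121913 (-0.13). The region at 26028975 ranked 13509 in knockout control and 17519 at 2 h, so the way regions were picked favoured its fall.

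In the knockout 4 h library, peaks covered less of the clusters, as of the genome, and member regions had a higher fold relative to all regions. Matched cover was 73372 bp, which fell by 33.2% from knockout control, while genome-wide cover fell by 28.0% and cover between the HIST1 intervals fell by 49.2%. HIST2 cover fell by 9.98%, and the second HIST1 interval fell by 37.9%. Whether the clusters fell by more than the genome depended on the peaks taken. With the 15000 strongest peaks the clusters fell by 23.5% and the genome fell by 29.3%. Among peaks with a −log10 q of 5 or more, the clusters fell by 42.6% and the genome fell by 68.0%. With all deposited peaks, which differ in number, the clusters fell by 31.6% and the genome fell by 1.82%. At least 20% of cover was missing in 17 of 44 members (29.0% of all regions). Without centring, the median log2 change of fold was 0.20 in members and -0.25 over all regions. After centring, 40 of 43 members stood above (50%), with a median of 0.45. Fold also stood above in nearly all regions of high local background, members or not, as given below. It was 1.5-fold stronger in 12 members (4.19% of all regions) and weaker in 1 (12.5%). By the ratio of solved pileup to local background, without the added 1, the counts were 4 (3.3%) and 2 (20%), with a median of 0.29. Rank moved up by more than 3000 places in 10 (15.2%) and down in 3 (16.1%).

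Regions were also split by their local background in knockout control, which is the denominator of the control's fold. Of the 2821 regions with at least 20 times the library's background, 11.1% were 1.5-fold stronger, with a median of 0.36, against 11 of 36 members of that kind, 30.6%, with a median of 0.48. Fold stood below the median change in 1.52% of those 2821 regions and in 0% of those 36 members, so a rise was not particular to the clusters. The highest were at 27798527 (centred log2 change 1.04), 27780287 to 27784177 (0.89; fold 2.41, 2.61 and 3.75 in knockout and 2.33, 2.59 and 2.51 in parental cells) and 26025378 (0.83). At 27798527 cover was 1234 bp in place of 3223 bp, at 27780287 it was 2288 in place of 2908 bp, and at 26025378 it was 414 in place of 1430 bp. The lowest were at 26116622 (-0.70), HIST3 (-0.45) and 26223876 (-0.01). The library's background pileup was 0.241 times that of its control, and an effect of 4 h of camptothecin cannot be told apart from that of its depth.

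Between untreated genotypes, the differences over the clusters were small in these lists. Matched cover was 109916 bp in knockout control against 107393 bp in parental control, 2.35% higher in the knockout, against 1.19% higher genome-wide. In HIST3 alone it was 3525 bp against 1988 bp, 77.3% higher in the knockout. Fold stood above the median change in 20 of 44 (50%), with a median of -0.01. It was 1.5-fold stronger in 0 (2.75%) and weaker in 0 (2.11%), and rank moved up by more than 3000 places in 0 (7.63%) and down in 2 (7.35%). Cover was at least 20% lower in 4 members (8.31%). The highest values in the knockout were at HIST3 (0.34), 27777849 to 27778381 (0.18; fold 2.42 and 2.74) and 26223876 (0.13). The lowest were at 26116622 (-0.30), 26206597 (-0.29) and 26025378 (-0.12). At 26116622 the way regions were picked favoured a lower value in knockout control. The direction of the cover difference depended on the peaks taken: with the 15000 strongest peaks the knockout minus parental difference was -5366 bp.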

How the data were processed

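H3K27ac ChIP-seq peak lists of 6 libraries were used, 1 per group, with groups taken from the labels. Per the submitters' processing notes, which give no role or order, the tools were the aligner BWA 0.7.17, the peak caller MACS2 2.1.2, the trimmers Trimmomatic 0.39 and Trim Galore 0.6.2, and Picard 2.9.2 and SAMtools 1.8, and the build was hg19. The caller's settings and control sample were not given in the sources used here. Each list was deposited per library, so peaks were not called on pooled samples. The deposited fold is the authors' ratio of pileup to local background, averaged over a peak. The deposited −log10 p and −log10 q are the authors' MACS2 values. The deposited score is 10 times −log10 q and was used only to check that column.

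Regions were the merged 15000 strongest peaks of 5 libraries on chromosomes 1 to 22 and X, joined to peaks and intervals by at least 1 bp of overlap. A region's value was the largest fold, or the smallest p for ranks, of its peaks. Log2 ratios were centred on the median of all regions. A ratio of 1.5 or a rank shift of 3000 counted as a call. Pileup and local background were solved from fold and p, and chosen as measures after seeing the data. Regions described singly were the 10 with the best mean rank, the 3 highest and 3 lowest changes of fold per comparison, the widest, all of HIST2 and HIST3, and the member of 1 window that earlier results named. A few others were chosen after their values were seen. The members and lists were chosen with earlier results of these data known. In simulated lists, the fold of the parental control peaks was multiplied by a set change and small random noise, while their widths, presence and depth were kept. Of 200 regions changed 1.5-fold, 55% were called among 18835, and 99.5% of those changed 2-fold. These shares follow from the cutoff and the noise put in, so they do not give the sensitivity between real libraries. Solved local background was a median 1.05 times the true one over 2000 simulated peaks. Those peaks were built from the same formulas for fold and p, with a fixed shape and a flat local background. The value therefore does not give the error over real peaks. Python 3.11.15, pandas 2.3.3, numpy 2.4.6 and scipy 1.17.1 were used. Promoters came from RefSeq (GRCh38.p14), the first listed per gene. Reads and signal tracks were not analysed here. Alternatives covered the peaks taken, thresholds, centring, the local background and counting mirrored pairs once.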

Additional observations from a re-analysis of the deposited data

Results flagged for a closer look

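At 4 h the fold of 2 member regions moved by at least 1.2-fold in each genotype, in opposite directions, relative to all regions, with 1 library each, and the difference was not tested. On chromosome 1 from 228613474 to 228614054, in HIST3, the centred log2 change was 0.37 in parental and -0.45 in knockout cells, a difference of 0.82. That region is a member only through parental 4 h, so the way regions were picked favoured a parental rise there. On chromosome 6 from 26121913 to 26122361 it was -0.28 in the parent and 0.38 in the knockout, a difference of -0.66. There the rank was 10094 in parental control and 15127 at parental 4 h, so the way regions were picked favoured a parental fall. Both regions are narrow, and the knockout 4 h library had the lowest background pileup (0.168 fragments per base), whose part was not tested. By sign alone, 6 members differed in direction at 4 h and 12 at 2 h, where none passed 1.2-fold in each. The other 4 at 4 h were 27791440 (-0.04 in the parent, 0.79 in the knockout), 26181886 (-0.05 and 0.51), 26206597 (-0.10 and 0.44) and 26223876 (0.25 and -0.01).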

How the results depend on the processing

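Of 110 alternative values, 75 counted as the same, 29 as moved and 6 as reversed, and the cause was not tested. A share counted as the same inside the exact 95% binomial interval of the reported one. A cover counted so within such an interval taken over bases, and a count of calls within a ratio of 1.5. Some alternatives, such as counting mirrored pairs once, could change little, so the tally does not measure how firm the results are. For counts of calls only the total of both directions was compared, so a turn of direction within a total was not counted. Ranks by fold, counted as the same, moved 3 members up and 1 down at parental 2 h, in place of 0 and 3. They moved 2 and 1 at parental 4 h, in place of 0 and 2, and 1 and 1 between controls, in place of 0 and 2. No paired analysis was possible because each group has 1 library and the labels give no replicate numbers. Change of matched cover was -19480, -12073, -10829, -36544 and 2523 bp (parental 2 h and 4 h, knockout 2 h and 4 h, knockout against parental control). With all deposited peaks it was -20386 and -20594 bp in the parent at 2 h and 4 h, -48052 bp at knockout 4 h and 8196 bp between controls, with the 15000 strongest peaks all 5 were -11635, -7213, -2722, -20691 and -5366 bp, and at a minimum −log10 q of 5 they were -14315, -8420, -2423, -37368 and -5353 bp. A threshold of 1.2-fold called 7, 4, 4, 37 and 3 members in place of 1, 0, 0, 13 and 0, and the library background put in for the local one called 2 at parental 2 h and 1 at 4 h. A shift of 1000 places called 15, 13, 20, 26 and 14 in place of 3, 2, 3, 13 and 2, and ranks by fold called 38 in knockout 4 h. The following alternatives were added after seeing the data. With ratios of pileup to local background, 6 members passed 1.5-fold at knockout 4 h in place of 13, and 47.7% of members were lower in knockout control, against 54.5%. Centred on regions of high local background, the share with lower pileup was 61.4% at parental 2 h (79.5% as reported), 27.9% at knockout 4 h (60.5%) and 45.5% in knockout control (72.7%). The share with lower local background was then 51.2% at knockout 4 h (86.0%) and 36.4% in knockout control (65.9%), so these knockout shares turn with the centring. With regions from all 6 libraries, 76.7% had lower pileup at knockout 4 h. The parental 4 h shares, 97.7% and 100%, did not change with the centring. Depth is known only as background pileup, and regions are not replicates.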
